A study of Gallus gallus with 54 samples.

Results

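Chick retina collected 4 h after an injection of TPMPA under a diffuser was set against untreated retina of the same age. The comparison was taken as the 4 TPMPA libraries against the 4 untreated libraries, which are 8 of the 54 libraries of the study, across all genes. The birds were male White Leghorn chicks kept for 6 days on a daily cycle of 12 h of light. On day 7 the TPMPA birds received a translucent diffuser over the eye together with an injection of TPMPA into the vitreous, and the retina was taken 4 h later at age 7 days. Birds with the diffuser alone (form-deprivation myopia, FDM, 4 libraries) show what the diffuser did without an injection. Birds with a diffuser and atropine, pirenzepine or ADTN (4 libraries each) show what other injected drugs did. A further 4 TPMPA and 3 untreated libraries were collected at 24 h, at age 8 days, and the 24 h drug birds had a repeat injection 4 h before collection. The untreated birds, collected at age 7 days, had neither diffuser nor injection. No group injected with vehicle was used here, so the drug, the injection and the diffuser cannot be told apart in the comparison with untreated retina.

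Deprivation of form vision by a diffuser makes the growing eye elongate and become myopic, a process steered within the eye by signals from the retina. GABA-C receptors, built from rho subunits, sit on bipolar cell terminals, and TPMPA ((1,2,5,6-tetrahydropyridin-4-yl)methylphosphinic acid) is an antagonist of these receptors that reduces such myopia in chicks. Amacrine cells, the inhibitory interneurons that read image contrast, switch on immediate early genes such as EGR1 and FOS within minutes of activity, and these respond to the sign of defocus. Müller cells, the radial glia of the retina, respond to injury and to cytokines by raising GFAP and STAT3.

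Total counts were 12.4 to 22.4 M in the TPMPA libraries (mean 17.6 ± 4.27 M) and 12.5 to 22.7 M in the untreated libraries (mean 16.8 ± 4.36 M; SD, n = 4 each). Some libraries stood apart from the others of their group. Untreated libraries 1 and 3 were high in genes of amino acid stress, and TPMPA library 4 was high in immediate early genes. The blood vessel score, a mean log2 CPM over vessel markers, was 4.77 in TPMPA library 1, against 1.55 to 1.73 in the other TPMPA libraries, and 3.19 to 3.82 in untreated libraries 1 to 3, against 1.60 in untreated library 4. Small structural RNAs were high in TPMPA libraries 1 and 2 and in untreated library 1. Within the low small-RNA libraries (TPMPA 3 and 4, untreated 2 to 4) 69 genes passed, of which 59 were higher with TPMPA. Most of the genes named below as called with all libraries, GFAP among them, lost their call there. The high libraries hold only 1 untreated sample. The labels do not say that the libraries of a group are from separate birds, so p-values measure only the spread between these samples.

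TPMPA with diffuser differed from untreated retina in 23 of 15746 genes tested (0.146%), of which 11 were higher (0.0699%) and 12 lower (0.0762%). The genes that rose included the glial filament GFAP, the nucleotide receptor P2RY2, the peptide NPY and the ERK inhibitor SPRY2. Those that fell included the stress genes CHAC1 and ASNS. All tests across genes used edgeR's quasi-likelihood test with Benjamini-Hochberg adjustment and a threshold of 0.05. Levels are CPM, counts scaled to the TMM-normalised library size, and changes are log2 differences, TPMPA minus untreated unless stated, ± SE. At an unadjusted p under 0.05 there were 1507 of the 15746 genes, and the median change of all genes was 0.01. Counts of list members at that p, given below, are to be read beside this share. The DESeq2 total over all genes is given with the processing alternatives. The 4 TPMPA libraries lay above all 4 untreated libraries in 382 genes (2.43%) and below them in 348 (2.21%). The count rested on the untreated libraries that stood apart: without untreated library 3 it was 0 (937 genes at an unadjusted p under 0.05, smallest adjusted p 0.0726) and without library 1 it was 3. With both left out it was 0 (1124 genes at an unadjusted p under 0.05, smallest adjusted p 0.405), and 23 of the 23 estimates kept their sign. Leaving out libraries can hardly turn the sign of a gene whose groups do not overlap, so the kept signs are no added support. Without untreated library 2 the count was 36, without untreated library 4 it was 61, without TPMPA library 1 it was 40, and without TPMPA libraries 2 or 3 it was 10 or 11.

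**Figure D1:**
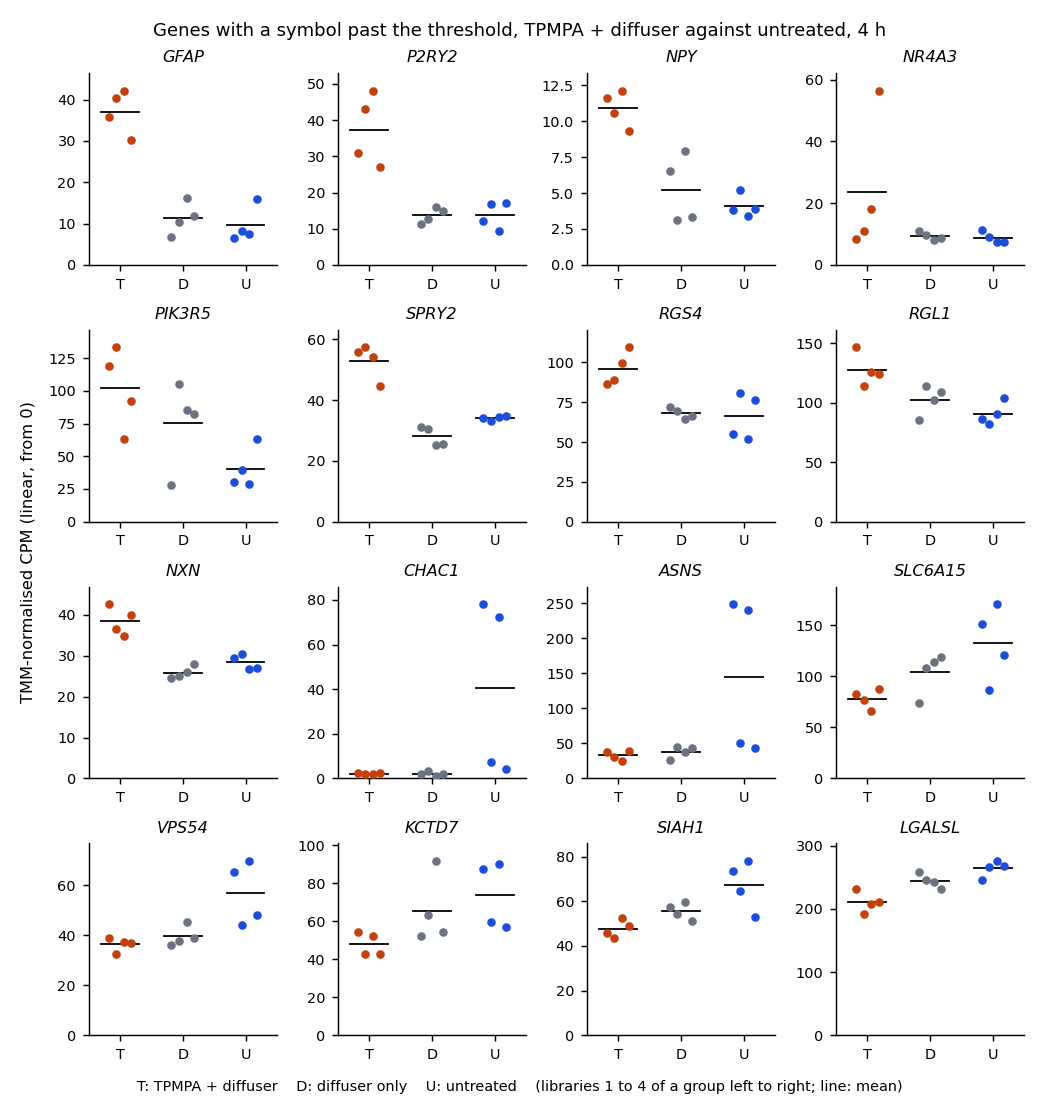
CPM of the 16 genes with a symbol past the threshold, by library, in TPMPA with diffuser (T), diffuser only (D) and untreated (U) retina at 4 h; points are libraries 1 to 4, lines are group means, and axes start at 0. CHAC1 and ASNS are high in untreated libraries 1 and 3 alone, and NR4A3 is high in TPMPA library 4 alone, while GFAP and SPRY2 separate the groups without such a library.

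GFAP had the largest rise of the 11 genes. It encodes an intermediate filament that reactive Müller cells raise. GFAP (ENSGALG00000000909, chromosome 27, 1466576 to 1470293, all positions in galGal5) stood at 35.8, 40.3, 42.1 and 30.2 CPM in the TPMPA libraries, against 6.51, 8.24, 7.58 and 16.01 CPM in the untreated libraries. The groups did not overlap, and untreated library 4 was the highest of its group. Lack of overlap was a condition for naming the largest rises and falls, so for these genes it is no added support. The change was 1.97 ± 0.41 (adjusted p = 0.0273), a call lost without TPMPA libraries 2 or 3 or untreated libraries 1, 2 or 3 (adjusted p up to 0.236). A second intermediate filament gave a call through 1 of its transcript entries: an entry that the files describe as nestin, without a symbol (ENSGALG00000013239, chromosome 25, 1462877 to 1466518) was at 71.00, 48.6, 69.2 and 43.2 CPM with TPMPA and at 29.1, 23.3, 27.7 and 16.2 CPM in untreated retina. It rose by 1.27 ± 0.28 (adjusted p = 0.0401), a call lost without TPMPA libraries 1, 2 or 3 or untreated libraries 1, 2, 3 or 4 (adjusted p up to 0.236). The entry with the symbol NES, which shares its reads, had a change of 1.22 ± 0.31 and did not pass (adjusted p = 0.0828). In whole retina, more RNA per cell and more cells of a type cannot be told apart.

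Of 26 Müller glial genes tested GFAP was the single member called, beside 0.0699% of all genes called higher. Of the 26, 23 had a positive change and the list's median was 0.16, against 0.01 for all genes, of which 52.6% were positive. At an unadjusted p under 0.05, 10 members were higher, and DESeq2 called 6. With the diffuser alone against the same untreated libraries 18 of the 26 were positive, the median was 0.19 and 0 were called. STAT3, the transcription factor that cytokines activate in glia, stood at 351, 338, 348 and 301 CPM with TPMPA and at 229, 214, 200.1 and 192 CPM in untreated retina. Its groups did not overlap, and its change of 0.68 ± 0.18 missed the threshold (adjusted p = 0.0940). The next members were chosen after their values were seen. SOX9, a transcription factor of Müller cells, had a change of 0.83 ± 0.19 (adjusted p = 0.0532). For SOCS3, the feedback inhibitor of STAT3, the TPMPA libraries held 11.6, 6.27, 22.5 and 3.52 CPM and the untreated libraries 1.66, 1.02, 0.940 and 0.560 CPM. Its change was 3.37 ± 0.87, with adjusted p = 0.0832. The wider list of cytokine, STAT and NF-kB genes had 29 of 34 positive changes, a median of 0.26 and 0 calls (7 higher and 1 lower at an unadjusted p under 0.05, 3 higher by DESeq2). For the 4 Müller cell markers (GLUL, RLBP1, VIM and SLC1A3) none was at 0 in all 8 libraries, and the summed level was 2148 to 3096 CPM with TPMPA and 2196 to 2729 CPM in untreated retina. The part of cell composition in the GFAP result was not tested.

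Receptors, peptides and signalling proteins were among the other rises. P2RY2, a receptor for extracellular ATP and UTP (ENSGALG00000042317, chromosome 1, 195388851 to 195390862), was at 30.96, 43.1, 48.1 and 26.98 CPM with TPMPA and at 12.1, 16.8, 9.40 and 17.1 CPM in untreated retina. Every TPMPA library lay above every untreated one, TPMPA library 3 being the highest. The rise was 1.43 ± 0.25 (adjusted p = 0.00464), lost without untreated library 3 (adjusted p up to 0.111). NPY, neuropeptide Y of amacrine cells (ENSGALG00000010983, chromosome 2, 31521047 to 31529071), had 11.6, 10.6, 12.1 and 9.30 CPM in the TPMPA libraries, against 3.84, 5.23, 3.42 and 3.92 CPM in the untreated ones. No libraries overlapped, and both groups were even. NPY rose by 1.40 ± 0.27 (adjusted p = 0.0242), a call lost without untreated libraries 1 or 3 (adjusted p up to 0.236).

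SPRY2, a Sprouty protein that holds back receptor tyrosine kinase signalling to ERK (ENSGALG00000016906, chromosome 1, 152670026 to 152675345), was even across the untreated libraries. SPRY2 stood at 55.8, 57.4, 54.1 and 44.7 CPM with TPMPA and at 34.2, 33.1, 34.4 and 34.7 CPM in untreated retina, with no overlap. TPMPA library 4 was the lowest of its group. The change was 0.64 ± 0.13 (adjusted p = 0.0242), lost without TPMPA library 2 or untreated libraries 1 or 3 (adjusted p up to 0.198). RGS4, which shortens signalling by G proteins (ENSGALG00000002564, chromosome 8, 3687052 to 3692405), had 86.7, 88.8, 99.6 and 109 CPM with TPMPA and 54.9, 81.05, 51.8 and 76.7 CPM in untreated retina. Untreated libraries 1 and 3 were the lowest here, and without both the change was 0.28 rather than 0.54 ± 0.11 (adjusted p = 0.0242 with all libraries, 0.678 without them). The call was lost without TPMPA libraries 3 or 4 or untreated libraries 1 or 3 (adjusted p up to 0.246).

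PIK3R5, a regulatory subunit of the phosphoinositide 3-kinase that G protein-coupled receptors activate, ranged widely within groups. Its levels were 119, 133, 63.5 and 92.6 CPM with TPMPA and 29.99, 39.4, 28.9 and 63.1 CPM in untreated retina, where the groups only just separated. It rose by 1.34 ± 0.29 (adjusted p = 0.0332), lost without TPMPA libraries 1 or 2 or untreated libraries 1, 2 or 3 (adjusted p up to 0.246). RGL1, an exchange factor for the small GTPase Ral, averaged 128 ± 13.6 CPM with TPMPA and 90.8 ± 9.61 CPM in untreated retina (SD, n = 4 each; change 0.50 ± 0.11, adjusted p = 0.0332 by the quasi-likelihood test of edgeR), a call lost without TPMPA libraries 1, 3 or 4 or untreated libraries 1, 2 or 3 (adjusted p up to 0.236). NXN, the redox protein nucleoredoxin, averaged 38.5 ± 3.46 CPM with TPMPA and 28.4 ± 1.79 CPM in untreated retina (SD, n = 4 each; change 0.44 ± 0.10, adjusted p = 0.0332 by the quasi-likelihood test of edgeR), lost without TPMPA libraries 1, 2 or 4 or untreated libraries 1, 3 or 4 (adjusted p up to 0.236). An unnamed gene on chromosome 4, ENSGALG00000045426, had 169.8, 141, 153 and 154 CPM with TPMPA and 89.3, 86.2, 89.8 and 104 CPM in untreated retina. It rose by 0.74 ± 0.16 (adjusted p = 0.0335), a call lost without TPMPA libraries 1, 2, 3 or 4 or untreated libraries 1, 2 or 3 (adjusted p up to 0.236).

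NR4A3, an immediate early nuclear receptor (ENSGALG00000013568, chromosome 2, 89674440 to 89694916), was carried by 1 library. It stood at 8.41, 10.98, 17.96 and 56.4 CPM with TPMPA and at 11.4, 9.10, 7.45 and 7.44 CPM in untreated retina, so the groups overlapped and TPMPA library 4 was far above the rest. The change was 1.39 ± 0.29 (adjusted p = 0.0242), and 0.49 (adjusted p = 0.414) without that library. The call was also lost without untreated library 1 or 3.

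Among the 12 genes that fell, CHAC1 and ASNS fell furthest. They belong to the genes of amino acid stress. These genes, targets of the transcription factor ATF4, make, import and charge amino acids when they run short. CHAC1, a stress-induced enzyme that degrades glutathione (ENSGALG00000027874, chromosome 5, 24438649 to 24440766), had 2.33, 2.07, 1.77 and 2.60 CPM in the TPMPA libraries and 78.1, 7.35, 72.3 and 4.00 CPM in the untreated libraries. Untreated libraries 1 and 3 were roughly an order of magnitude above libraries 2 and 4. The lowest untreated value was above every TPMPA value, which was a condition for naming the gene. The change was -4.21 ± 0.72 (adjusted p = 0.00464). It was -1.39 (adjusted p = 0.691) without untreated libraries 1 and 3, and the call was lost without library 3 alone (adjusted p = 0.0726).

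ASNS, which makes asparagine (ENSGALG00000009748, chromosome 2, 24690802 to 24704682), had 38.3, 30.00, 24.7 and 39.7 CPM with TPMPA and 248, 50.02, 239.7 and 43.1 CPM in untreated retina. As with CHAC1, untreated libraries 1 and 3 were high and libraries 2 and 4 lay just above the TPMPA range. ASNS fell by 2.13 ± 0.44 (adjusted p = 0.0242), with a change of -0.50 (adjusted p = 0.856) without those libraries, and the call was lost without TPMPA libraries 2 or 3 or untreated libraries 1 or 3 (adjusted p up to 0.236). Over all genes 0.0762% were called lower, 52.6% had a positive change and the median was 0.01. Of 31 amino acid stress genes tested 2 fell, 30 had a negative change, and the median change was -0.47. Without untreated libraries 1 and 3, 17 were negative and 14 positive, and the median was -0.03. At an unadjusted p under 0.05, 23 members were lower, and DESeq2 called 9. What set those untreated libraries apart was not tested. Pirenzepine library 3 was also high in ASNS, at 202.6 CPM against 41.6 to 61.5 CPM in the other pirenzepine libraries. The stress genes PHGDH and PSAT1 were high in it too. PHGDH was at 56.1 CPM against 1.38 to 2.00 CPM in the other pirenzepine libraries, and PSAT1 at 90.4 CPM against 39.5 to 48.4 CPM. Its levels of CHAC1, 3.22 CPM, and MTHFD2, 54.5 CPM, did not stand apart.

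**Figure D2:**
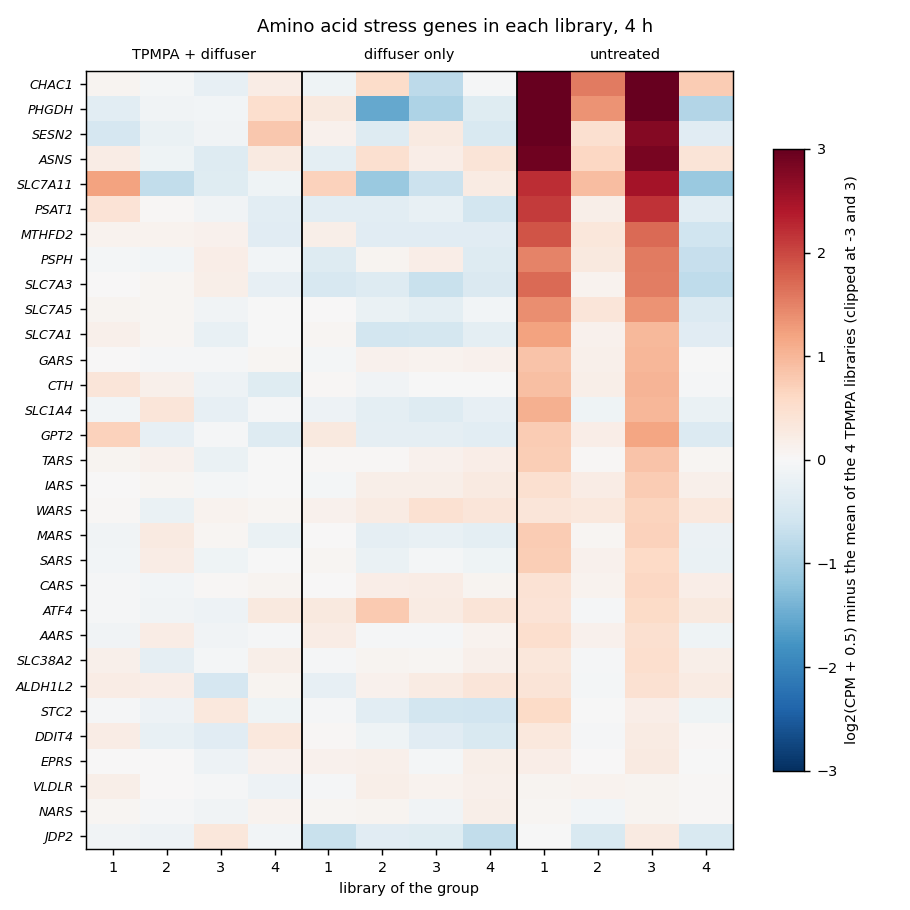
Levels of the 31 amino acid stress genes in each library at 4 h, as log2(CPM + 0.5) minus the mean of the 4 TPMPA libraries, with TPMPA, diffuser-only and untreated libraries from left to right and the colour scale clipped at -3 and 3. Untreated libraries 1 and 3 are high for most of the list, and the TPMPA and diffuser-only libraries are near 0.

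VPS54, KCTD7, SIAH1 and SLC6A15 were also highest in untreated libraries 1 and 3. VPS54, a tethering subunit for transport to the Golgi (ENSGALG00000008847, chromosome 3, 9579065 to 9605750), had 38.9, 32.3, 37.2 and 36.9 CPM with TPMPA and 65.4, 43.9, 69.7 and 47.9 CPM in untreated retina, with no overlap. It fell by 0.64 ± 0.13 (adjusted p = 0.0242), a call lost without TPMPA libraries 2 or 3 or untreated libraries 1 or 3 (adjusted p up to 0.246). KCTD7, an adaptor for ubiquitin ligases, averaged 47.95 CPM with TPMPA and 73.6 CPM in untreated retina (change -0.62 ± 0.14, adjusted p = 0.0332), lost without TPMPA libraries 2, 3 or 4 or untreated libraries 1 or 3 (adjusted p up to 0.305). SIAH1, a ubiquitin ligase, averaged 47.7 CPM with TPMPA and 67.3 CPM in untreated retina (change -0.50 ± 0.10, adjusted p = 0.0242), lost without TPMPA library 2 or untreated libraries 1 or 3 (adjusted p up to 0.236). Without untreated libraries 1 and 3 the changes were -0.34 for VPS54, -0.29 for KCTD7 and -0.31 for SIAH1.

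LGALSL, a galectin-like protein (ENSGALG00000027096, chromosome 3, 9738594 to 9744732), did not follow untreated libraries 1 and 3. Its levels were 232, 192, 208 and 211 CPM with TPMPA and 246, 267, 276 and 269 CPM in untreated retina, with no overlap. It fell by 0.33 ± 0.07 (adjusted p = 0.0242), and the estimate without untreated libraries 1 and 3 was -0.35 (adjusted p = 0.405). The call was lost without TPMPA libraries 2 or 3 or untreated library 3 (adjusted p up to 0.236). SLC6A15, a transporter of neutral amino acids in neurons, had 82.8, 76.6, 65.8 and 87.2 CPM with TPMPA and 151, 86.02, 170.4 and 121 CPM in untreated retina. The groups overlapped through untreated library 2, and its change was -0.76 ± 0.17 (adjusted p = 0.0450), lost without TPMPA libraries 1, 2, 3 or 4 or untreated libraries 1 or 3 (adjusted p up to 0.372). The remaining 5 falls had no symbol, and 2 of them are given here. ENSGALG00000033904 averaged 47.6 CPM with TPMPA and 77.05 CPM in untreated retina (change -0.70 ± 0.14, adjusted p = 0.0242), lost without TPMPA library 2 or untreated libraries 1 or 3 (adjusted p up to 0.236). ENSGALG00000041452 averaged 83.9 CPM with TPMPA and 113 CPM in untreated retina (change -0.43 ± 0.10, adjusted p = 0.0401), lost without TPMPA libraries 1, 2 or 4 or untreated libraries 1 or 3 (adjusted p up to 0.236). Without untreated libraries 1 and 3 the changes were -0.41 for SLC6A15, -0.31 for ENSGALG00000033904 and -0.35 for ENSGALG00000041452.

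The response to the diffuser with and without the TPMPA injection was read from 3 calls per gene. These were TPMPA against untreated, diffuser only against untreated, and TPMPA against diffuser only. The diffuser-only birds had no injection, so here too the drug and the injection cannot be told apart. The diffuser alone lowered 27 genes (0.171%), and without untreated libraries 1 and 3 it lowered 0 by edgeR (482 genes changed at an unadjusted p under 0.05, smallest adjusted p 0.0571). TPMPA with diffuser was higher than diffuser only in 65 genes (0.413%) and lower in 9 (0.0572%). Of the 27 genes, 9 were higher with TPMPA than with the diffuser alone and were not called against untreated retina, which is the class taken here as restored. A further 4 were also lower with TPMPA than in untreated retina, and 14 gave neither call. The 3 comparisons share libraries, so these are counts by a fixed rule and not independent results. Of the diffuser's own calls, those of DUSP4, MAFF and PRLHR held without any one library, and without untreated libraries 1 and 3 the restored class held 0 genes. Its count of 9 became 2 without diffuser-only library 2 or 3 or untreated library 1, 3 without diffuser-only library 4, 4 without untreated library 3, 5 without untreated library 2 and 29 without diffuser-only library 1.

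**Figure D3:**
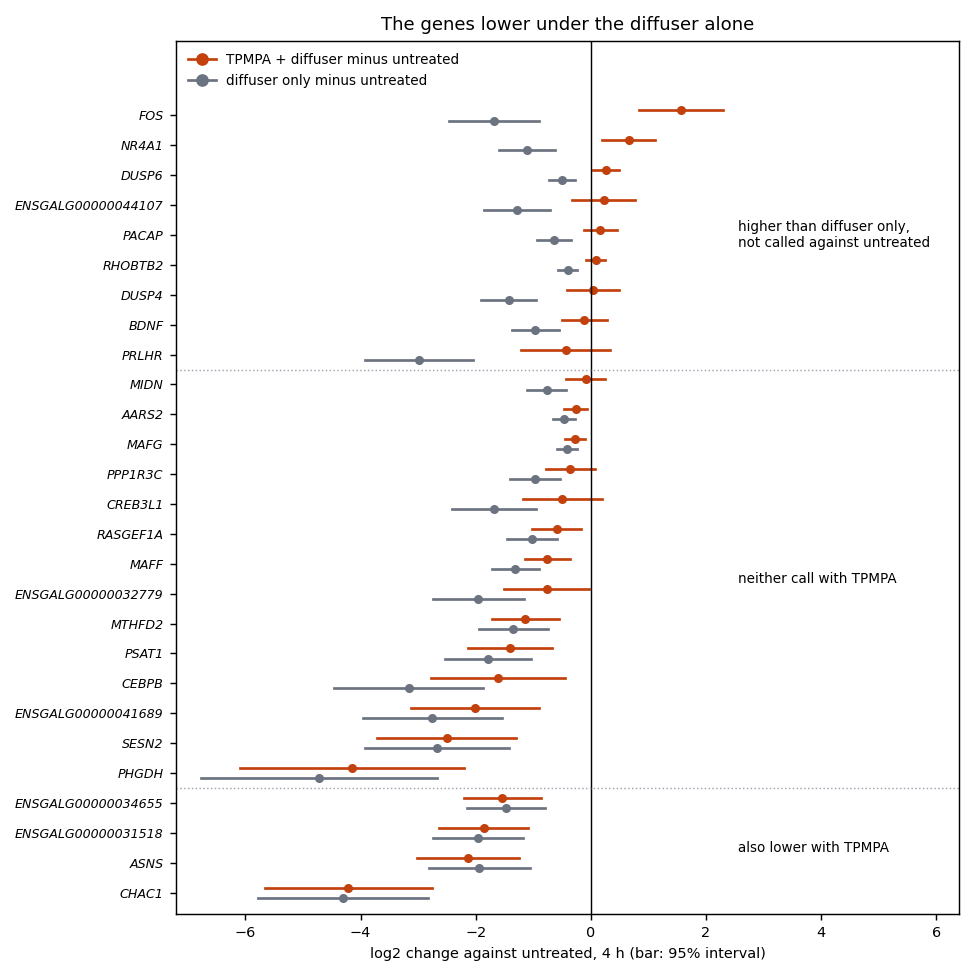
Log2 changes against untreated retina at 4 h with 95% intervals for the 27 genes lower under the diffuser, in TPMPA with diffuser (orange) and in diffuser only (grey), grouped by class. The intervals of BDNF, DUSP4, RHOBTB2 and PACAP hold 0 with TPMPA, those of FOS, NR4A1 and DUSP6 lie above 0, and those of CHAC1 and ASNS lie below 0 in both groups.

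The restored genes were BDNF, DUSP4, DUSP6, FOS, NR4A1, PACAP, PRLHR and RHOBTB2, with 1 gene without a symbol. Several are switched on by neuronal activity or by ERK signalling. The call against diffuser only held without any one library for 8 of the 9, BDNF being the exception. BDNF, a neurotrophin (ENSGALG00000012163, chromosome 5, 3715527 to 3747234), had 6.51, 5.91, 8.46 and 8.55 CPM with TPMPA, 4.18, 4.97, 3.78 and 3.49 CPM with the diffuser alone and 7.45, 9.01, 7.32 and 8.00 CPM in untreated retina. The TPMPA range overlapped the untreated range and lay above that of the diffuser alone. Its change was 0.85 against diffuser only (adjusted p = 0.0367) and -0.11 against untreated (95% interval -0.51 to 0.28). The call against diffuser only was lost without TPMPA libraries 3 or 4 or diffuser-only libraries 2, 3 or 4 (adjusted p up to 0.172). DUSP4, a phosphatase that switches off ERK (ENSGALG00000011419, chromosome 4, 49691811 to 49696013), had 6.88, 15.3, 19.5 and 13.9 CPM with TPMPA, 5.59, 3.55, 4.43 and 6.45 CPM with the diffuser alone and 17.3, 12.4, 11.7 and 12.97 CPM in untreated retina. TPMPA library 1 was close to the diffuser-only libraries, libraries 2 and 4 lay within the untreated range and library 3 above it. The change was 1.46 against diffuser only (adjusted p = 0.000270, at most 0.00619 without any one library) and 0.04 against untreated (-0.41 to 0.48).

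DUSP6, a second ERK phosphatase (ENSGALG00000011207, chromosome 1, 43288467 to 43292808), had 95.9, 88.4, 80.8 and 93.9 CPM with TPMPA, 60.7, 50.7, 48.5 and 51.4 CPM with the diffuser alone and 76.95, 78.2, 62.4 and 80.8 CPM in untreated retina. The TPMPA libraries lay above both other groups, with the highest untreated library only just below the lowest of them. Its change was 0.76 against diffuser only (adjusted p = 6.4e-05) and 0.27 against untreated, with an interval of 0.04 to 0.49 that leaves out 0 although the gene did not pass over all genes (adjusted p = 0.416). DUSP6 was at 74.4 to 100.8 CPM with ADTN, and at 53.9 to 69.2 CPM with atropine or pirenzepine. PACAP, a peptide of amacrine and ganglion cells (ENSGALG00000014858, chromosome 2, 102121743 to 102124573), averaged 28.5 ± 4.92 CPM with TPMPA, 16.3 ± 3.14 CPM with the diffuser alone and 25.4 ± 2.02 CPM in untreated retina (SD, n = 4 each). It differed by 0.81 from diffuser only (adjusted p = 0.00167) and by 0.17 from untreated (-0.12 to 0.45). RHOBTB2, an adaptor of cullin ubiquitin ligases, averaged 61.6 ± 5.12, 43.9 ± 3.53 and 58.02 ± 7.19 CPM in TPMPA, diffuser-only and untreated retina (change against diffuser only 0.49, adjusted p = 0.000438). PRLHR, the receptor for prolactin-releasing peptide, was close to the detection limit at 1.04, 2.54, 2.33 and 2.01 CPM with TPMPA, 0.447, 0.426, 0.456 and 0 CPM with the diffuser alone and 2.19, 2.63, 4.03 and 1.92 CPM in untreated retina.

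FOS and NR4A1 were highest in TPMPA library 4. FOS, the activity-induced transcription factor (ENSGALG00000028037, chromosome 5, 38264804 to 38267713), had 30.4, 36.5, 66.98 and 209.6 CPM with TPMPA, 10.96, 8.66, 9.32 and 6.80 CPM with the diffuser alone and 34.8, 30.8, 27.2 and 22.2 CPM in untreated retina. Every TPMPA library exceeded every diffuser-only library, TPMPA library 1 lay within the untreated range and library 2 just above it. Against diffuser only the change was 3.25 (adjusted p = 4.92e-06), and 2.32 (adjusted p = 2.56e-05) without TPMPA library 4. Against untreated it was 1.57 ± 0.36 (adjusted p = 0.0511), and 0.63 (adjusted p = 0.479) without that library. With atropine, pirenzepine or ADTN, FOS was at 20.3 to 58.5 CPM, also above every diffuser-only library. NR4A1, an immediate early nuclear receptor (ENSGALG00000043727, on an unplaced scaffold), had 14.2, 20.2, 25.6 and 42.8 CPM with TPMPA, 10.7, 5.39, 7.82 and 5.66 CPM with the diffuser alone and 22.3, 15.2, 15.2 and 12.01 CPM in untreated retina. TPMPA library 4 was again the highest, and libraries 1 and 2 lay within the untreated range. Its change was 1.77 against diffuser only (adjusted p = 1.82e-05), 1.42 without TPMPA library 4 (adjusted p = 0.000401), and 0.66 against untreated (0.20 to 1.12, or a change of 0.31 without that library). With the other drugs NR4A1 was at 7.47 to 13.8 CPM, which overlapped the diffuser-only range.

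Other genes that respond to retinal activity or defocus were followed whatever their result. EGR1, the immediate early factor used as a sign of amacrine cell response (ENSGALG00000007669, chromosome 13, 18348955 to 18351756), had 62.2, 49.7, 89.5 and 415 CPM with TPMPA, 21.7, 20.3, 20.9 and 23.96 CPM with the diffuser alone and 53.3, 73.7, 52.4 and 43.3 CPM in untreated retina. TPMPA libraries 1 and 2 lay within the untreated range, library 3 above it and library 4 far above it, and all 4 were above the diffuser-only libraries. It was higher than with the diffuser alone by 2.82 (adjusted p = 0.000270), or 1.63 without library 4 (adjusted p = 0.0110). Against untreated the change was 1.46 ± 0.41 (adjusted p = 0.138), or 0.27 without library 4. With atropine, pirenzepine or ADTN, EGR1 was at 29.7 to 95.3 CPM, also above every diffuser-only library. VIP, the vasoactive peptide of amacrine cells (ENSGALG00000013604, chromosome 3, 49646763 to 49653486), had 35.1, 44.2, 48.9 and 65.9 CPM with TPMPA, 20.1, 19.2, 13.8 and 14.8 CPM with the diffuser alone and 26.7, 36.8, 23.3 and 40.02 CPM in untreated retina. UTS2B, a urotensin-like peptide (ENSGALG00000007222, chromosome 9, 13751029 to 13757813), had 9.15, 15.8, 18.8 and 37.5 CPM with TPMPA, 3.73, 4.54, 3.71 and 2.53 CPM with the diffuser alone and 7.69, 10.8, 6.44 and 9.21 CPM in untreated retina. For both peptides each TPMPA library lay above each diffuser-only library and the TPMPA range overlapped the untreated one. Against diffuser only VIP rose by 1.52 (adjusted p = 0.000126) and UTS2B by 2.49 (adjusted p = 1.82e-05), and against untreated their changes were 0.61 ± 0.22 (adjusted p = 0.333) and 1.24 ± 0.32 (adjusted p = 0.0828). Without TPMPA library 4 the change of UTS2B against untreated was 0.77. GCG, NTS and BMP2, followed in the same way, did not pass against untreated: the changes were -0.08 ± 0.23, 0.10 ± 0.16 and -0.57 ± 0.56 (adjusted p = 0.967, 0.922 and 0.838). TH was not analysed here.

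Lower in both comparisons with untreated retina were CHAC1, ASNS and 2 genes without a symbol, and 14 genes gave neither call. Of the 14, PHGDH, PSAT1, MTHFD2 and SESN2 are genes of serine synthesis, folate metabolism and stress. PHGDH, which opens serine synthesis, had 1.66, 1.97, 2.03 and 3.27 CPM with TPMPA, 2.76, 0.426, 0.912 and 1.57 CPM with the diffuser alone and 79.1, 6.25, 70.3 and 0.961 CPM in untreated retina. Untreated libraries 1 and 3 were far above the others of these 3 groups, and untreated library 4 was below every TPMPA library. Its change was -4.14 ± 0.97 with TPMPA (adjusted p = 0.0532). PSAT1 had a change of -1.41 ± 0.36, MTHFD2 of -1.14 ± 0.29 and SESN2 of -2.50 ± 0.60 (adjusted p = 0.0828, 0.0828 and 0.0557). The stress-linked transcription factors CEBPB and CREB3L1 had changes of -1.61 ± 0.58 and -0.50 ± 0.34 with TPMPA (adjusted p = 0.319 and 0.715), and -3.16 and -1.68 with the diffuser alone. CEBPB had 5.04, 4.61, 7.47 and 7.21 CPM with TPMPA and 36.5, 3.70, 30.5 and 3.84 CPM in untreated retina, so untreated libraries 2 and 4 lay below every TPMPA library. Without untreated libraries 1 and 3 the TPMPA changes turned to 0.68 for CEBPB and 0.52 for CREB3L1. Those of PSAT1, MTHFD2, SESN2 and PHGDH were then 0.07, 0.06, -0.11 and -0.74, with adjusted p of 0.836 or more for these 6 genes.

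MIDN, midnolin, which targets immediate early proteins for degradation, had 37.2, 36.9, 38.1 and 41.7 CPM with TPMPA, 36.2, 18.6, 19.6 and 20.9 CPM with the diffuser alone and 52.1, 39.2, 39.9 and 32.02 CPM in untreated retina. The TPMPA libraries lay within the untreated range, and so did diffuser-only library 1. The change of MIDN was -0.09 against untreated (-0.43 to 0.25) and 0.68 against diffuser only (adjusted p = 0.0507). MAFF, of the small Maf family of transcription factors, had 22.9, 30.98, 32.2 and 29.7 CPM with TPMPA, 19.6, 18.6, 18.8 and 21.4 CPM with the diffuser alone and 72.8, 34.00, 60.5 and 28.01 CPM in untreated retina. It lay above the diffuser-only libraries in 4 of 4 TPMPA libraries, with changes of 0.56 (adjusted p = 0.183) against diffuser only and -0.76 (adjusted p = 0.0828) against untreated. MAFG, AARS2, PPP1R3C and RASGEF1A had changes against untreated of -0.27, -0.27, -0.36 and -0.60, and adjusted p of 0.219, 0.333, 0.633 and 0.309. Without untreated libraries 1 and 3 the changes were 0.10 for MIDN, -0.11 for MAFF, -0.11 for MAFG and -0.16 for RASGEF1A.

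Overshoot was taken as a call against untreated in the direction opposite to the diffuser's estimate, with a call in the same direction against diffuser only. It held for 3 genes, P2RY2, SPRY2 and NXN, and the diffuser's own change was called for none of these 3. SPRY2 stood at 31.2, 30.4, 25.3 and 25.7 CPM with the diffuser alone, below each of its untreated values, and its TPMPA minus diffuser-only change was 0.92 (adjusted p = 2.67e-05). NXN stood at 24.6, 24.98, 25.9 and 27.9 CPM with the diffuser alone and differed from it with TPMPA by 0.57 (adjusted p = 0.000539). P2RY2 had 11.4, 12.6, 16.03 and 14.8 CPM with the diffuser alone, which overlapped untreated retina, and a change of 1.44 against it (adjusted p = 0.000887). Its change against untreated was nearly the same, 1.43, so only the sign of a very small diffuser estimate placed P2RY2 in this class.

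New changes, called against untreated and not in diffuser only, were found in 19 genes: 11 rises and 8 falls, overshoot included. The 19 became 0 without untreated library 3, 2 without untreated library 1, 7 and 10 without TPMPA library 2 and 3, 30 without untreated library 4 and 35 without TPMPA library 1. TPMPA against diffuser only was called for 6 of the 19 as well: GFAP, P2RY2, SPRY2, RGS4, NXN and NR4A3. All 6 were rises, and 0 of the 8 falls were called against diffuser only. A new fall here therefore means that the diffuser's own change missed the threshold, not that it was absent. With the diffuser alone VPS54 had 36.0, 37.6, 45.4 and 38.95 CPM, which overlapped its TPMPA range. LGALSL had 259, 246, 242 and 231 CPM, of which libraries 1 and 2 lay within its untreated range. GFAP had 6.86, 10.5, 16.2 and 11.8 CPM with the diffuser alone, and its change against diffuser only was 1.70 (adjusted p = 0.0425), lost without TPMPA libraries 1, 2 or 3 or diffuser-only libraries 1, 2, 3 or 4 (adjusted p up to 0.148). The call of NR4A3 against diffuser only was lost without TPMPA library 4 or diffuser-only libraries 2, 3 or 4 (adjusted p up to 0.323), and that of RGS4 without TPMPA libraries 3 or 4 or diffuser-only libraries 2, 3 or 4 (adjusted p up to 0.108). NPY had 6.56, 3.12, 7.95 and 3.31 CPM with the diffuser alone, in which libraries 1 and 3 approached the TPMPA range, and the change against it missed the threshold (1.03, adjusted p = 0.0622). PIK3R5 had 27.9, 105, 85.4 and 82.3 CPM with the diffuser alone, and diffuser-only libraries 2 to 4 lay within the TPMPA range (0.45, adjusted p = 0.480).

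The drug's own targets and the other transmitter systems gave no calls. GABRR1, GABRR2 and GABRR3, the rho subunits of the GABA-C receptor, averaged 44.6 ± 8.28, 29.04 ± 3.44 and 62.7 ± 2.06 CPM with TPMPA and 46.4 ± 4.39, 30.6 ± 6.30 and 69.7 ± 9.70 CPM in untreated retina (SD, n = 4 each). Their changes were -0.06 (95% interval -0.28 to 0.16), -0.07 (-0.32 to 0.17) and -0.15 (-0.39 to 0.09). Of 30 GABA system genes 0 passed in either direction and the median change was -0.03 (1 higher at an unadjusted p under 0.05, 0 by DESeq2 or limma voom). That member was GABRB4, an avian beta subunit of GABA-A receptors, at 48.7, 57.6, 59.2 and 54.6 CPM with TPMPA, above each of 42.9, 41.2, 33.02 and 37.4 CPM in untreated retina, with a change of 0.51 ± 0.20 (adjusted p = 0.356). GAD67, which makes GABA, had a change of -0.04 (adjusted p = 0.967). Dopamine, acetylcholine, and glutamate and glycine receptor genes had 0 calls among 11, 17 and 23 members, with 2, 1 and 1 higher at an unadjusted p under 0.05, and their median changes were 0.12, -0.00142 and 0.03. By DESeq2 and by limma voom these 3 lists had 0 calls. DRD4, a dopamine receptor of photoreceptors, averaged 252 CPM with TPMPA and 231 CPM in untreated retina, and CHRNB3, a nicotinic receptor subunit, 250.5 and 251 CPM. GRIN1, the obligatory subunit of NMDA receptors, averaged 551 and 540.4 CPM.

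**Figure D4:**
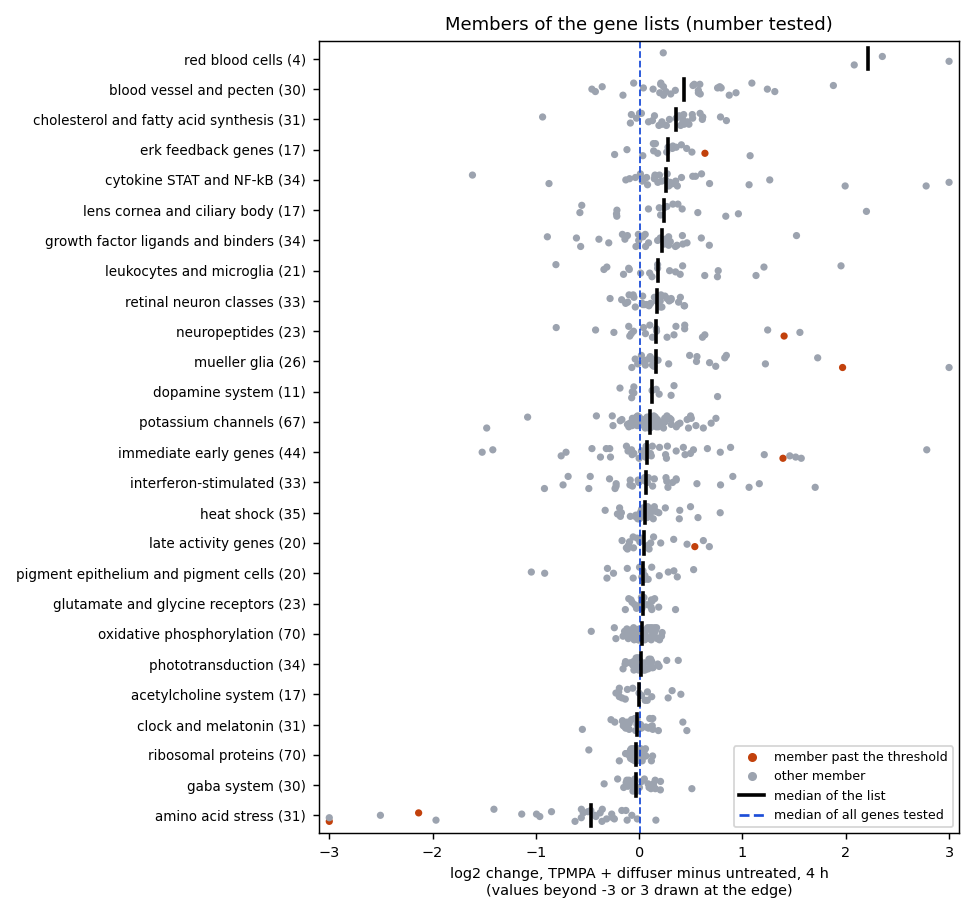
Log2 change, TPMPA with diffuser minus untreated at 4 h, of each member of the gene lists (points, orange where past the threshold), with the list's median (black bar) and the median of all genes (dashed line); values beyond -3 or 3 are drawn at the edge. The amino acid stress list lies to the left at a median of -0.47. The red blood cell list (4 genes) and the blood vessel and pecten list lie furthest to the right, at 2.22 and 0.44. The cholesterol, ERK feedback and cytokine lists follow at 0.36, 0.28 and 0.26.

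Over all genes 0.0699% were called higher against untreated, and the median was 0.01. Of 44 immediate early genes 1 rose, NR4A3, and the median change was 0.07. At an unadjusted p under 0.05, 14 were higher and 5 lower, and DESeq2 called 5 higher and 2 lower. Against diffuser only 7 of the 44 rose, beside 0.413% of all genes, and the median was 0.43. Without TPMPA library 4 the count was 5 and the median 0.36. Of 17 ERK feedback genes 1 rose against untreated, SPRY2, with 15 positive and a median of 0.28, and 5 rose against diffuser only, with a median of 0.63. Against untreated, 7 were higher and 1 lower at an unadjusted p under 0.05, and DESeq2 called 2 higher. The 5 were DUSP4, DUSP6, SPRY2, ETV4 and ETV5, of which the last pair is described as chosen after its values were seen. ETV4, a transcription factor downstream of ERK, averaged 20.7 ± 6.28 CPM with TPMPA, 7.58 ± 1.65 CPM with the diffuser alone and 9.89 ± 0.358 CPM in untreated retina (SD, n = 4 each). Its change was 1.07 ± 0.28 against untreated (adjusted p = 0.0828) and 1.45 against diffuser only (adjusted p = 0.00514). ETV5, a close relative, had changes of 0.28 ± 0.13 (adjusted p = 0.462) and 0.72 (adjusted p = 0.00127). Of 23 neuropeptide genes and receptors 1 rose, NPY, and the median was 0.17. Of 20 late activity genes 1 rose, RGS4, and the median was 0.05.

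Over all genes 52.6% had a positive change against untreated and the median was 0.01. Of 31 cholesterol and fatty acid synthesis genes 27 had a positive change and the median was 0.36, with 0 calls, 15 higher at an unadjusted p under 0.05, 5 by DESeq2 and 1 by limma voom. When untreated libraries 1 and 3 were left out, 24 were positive and the median was 0.24. FASN, fatty acid synthase, averaged 832 ± 126 CPM with TPMPA and 635 ± 74.2 CPM in untreated retina (SD, n = 4 each; change 0.39, adjusted p = 0.570 by edgeR). Blood vessel and pecten genes were positive in 25 of 30 (median 0.44) with 0 calls, 2 higher at an unadjusted p under 0.05 and 0 by DESeq2. Without untreated libraries 1 and 3, 29 were positive with a median of 1.26. The 7 vessel markers in the table summed to 340 to 478 CPM with TPMPA and 279 to 361 CPM in untreated retina. KDR, a receptor of vascular growth factor, made up most of that sum. It was at 289 to 358 CPM with TPMPA and 244 to 297 CPM in untreated retina. The blood vessel score went the other way, with a mean of 2.435 with TPMPA and 3.074 in untreated retina. TPMPA library 1 had the highest score, 4.77, and the other TPMPA libraries had 1.55 to 1.73. The change of KDR was 0.24 and that of the glucose transporter SLC2A1 0.20 (adjusted p = 0.465 and 0.659). The haemoglobin gene HBAA stood at 36.2, 15.03, 6.26 and 4.94 CPM with TPMPA and at 4.44, 0.383, 6.51 and 3.68 CPM in untreated retina, and TPMPA library 1 was the highest. With the blood vessel score as a term in the fit, 51 genes passed in all.

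The other lists held 0 called members: interferon-stimulated genes (33, median 0.06), growth factor ligands and binders (34, 0.22), phototransduction (34, 0.02), clock and melatonin (31, -0.02), heat shock (35, 0.06), ribosomal proteins (70, -0.03), oxidative phosphorylation (70, 0.03) and potassium channels (67, 0.11). DESeq2 called 1 of these genes, an interferon-stimulated one, and limma voom 0. At an unadjusted p under 0.05 ribosomal proteins and oxidative phosphorylation genes had 0 in either direction. Over all genes 1507 of 15746 passed that p in either direction. Potassium channels had 6 higher and 1 lower, growth factor genes 5 higher and 1 lower, and heat shock genes 3 higher and 1 lower. Interferon-stimulated genes had 2 higher, phototransduction genes 1 higher, and clock genes 1 higher and 2 lower. TGFB3, a growth factor of the TGF-beta family, stood at 139.8, 115, 107 and 98.4 CPM with TPMPA and at 80.7, 93.4, 85.9 and 84.4 CPM in untreated retina, without overlap, and its change of 0.42 ± 0.12 missed the threshold (adjusted p = 0.131). CHRDL1, an inhibitor of bone morphogenetic proteins, had a change of 0.46 ± 0.15 (adjusted p = 0.205). PER2, a core clock gene, averaged 406 CPM with TPMPA and 411 CPM in untreated retina, and the phototransduction G protein subunit GNB1 882 and 938 CPM. Retinal neuron class genes had a median of 0.17 over 33 members, with 0 calls and 5 higher and 2 lower at an unadjusted p under 0.05. Leukocyte and microglial genes (21), pigment epithelium (20), lens, cornea and ciliary body (17) and red blood cell genes (4) had medians of 0.18, 0.04, 0.24 and 2.22, with 0 calls by edgeR or DESeq2 and 3, 1, 0 and 1 higher at an unadjusted p under 0.05.

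TPMPA was next set against the other injected drugs, a contrast that uses no untreated library. The mean of the atropine (a muscarinic antagonist), pirenzepine (an antagonist selective for M1 and M4 muscarinic receptors) and ADTN (a dopamine agonist) groups, each with a diffuser, was the base. Small structural RNAs were high in 2 of 4 TPMPA, 3 of 4 ADTN, 0 of 4 atropine and 0 of 4 pirenzepine libraries. TPMPA was higher in 105 genes (0.667%) and lower in 31 (0.197%). The 136 genes became 297 without TPMPA library 1, 27 without TPMPA library 2, 29 without TPMPA library 3 and 70 without TPMPA library 4. Without pirenzepine library 1 there were 207, and without ADTN library 2 or 3, atropine library 3 or 4, or pirenzepine library 2 or 3 there were 73 to 89. The immediate early and peptide genes UTS2B, NR4A3 and NR4A1 were higher with TPMPA, whereas GFAP, P2RY2 and SPRY2 were also high after the other drugs. Of the 23 genes called against untreated, the change from the other injections was called for 2, NR4A3 and the nestin entry.

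NR4A3 averaged 23.4 CPM with TPMPA and 6.85, 6.29 and 8.19 CPM with atropine, pirenzepine and ADTN. Its change was 1.72 (adjusted p = 5.59e-06), and 0.82 (adjusted p = 0.0190) without TPMPA library 4. The groups overlapped for NR4A3. TPMPA library 1, at 8.41 CPM, lay below atropine library 2 (8.69 CPM) and ADTN libraries 1 and 3 (9.76 and 9.18 CPM). NR4A1 had 11.9, 7.47, 11.6 and 9.60 CPM with atropine, 12.5, 10.8, 8.34 and 9.39 CPM with pirenzepine and 12.4, 12.6, 9.43 and 13.8 CPM with ADTN, each below the lowest TPMPA library. The change of NR4A1 was 1.25 (adjusted p = 3.76e-05), and 0.89 without TPMPA library 4 (adjusted p = 0.0182). UTS2B averaged 20.3 CPM with TPMPA and 5.77, 9.70 and 3.20 CPM with the other drugs in that order (change 1.85, adjusted p = 5.59e-06, or 1.38 and 0.00454 without TPMPA library 4). Pirenzepine library 3, at 16.9 CPM of UTS2B, lay above TPMPA libraries 1 and 2 (9.15 and 15.8 CPM). FOS had a change of 1.51 (adjusted p = 0.00331) that became 0.57 (adjusted p = 0.261) without TPMPA library 4, and EGR1 one of 1.26 (adjusted p = 0.0386) that became 0.07 (adjusted p = 0.933). VIP differed by 0.81 (adjusted p = 0.0179), a call lost without TPMPA libraries 3 or 4 (adjusted p up to 0.120). Its levels were 22.9 to 45.8 CPM with atropine and 31.4 to 60.4 CPM with pirenzepine, which overlapped TPMPA at 35.1 to 65.9 CPM. With ADTN they were lower, at 12.2 to 17.8 CPM. DUSP4 differed by 0.96 (adjusted p = 0.00401), lost without TPMPA library 3 (adjusted p up to 0.0908).

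**Figure D5:**
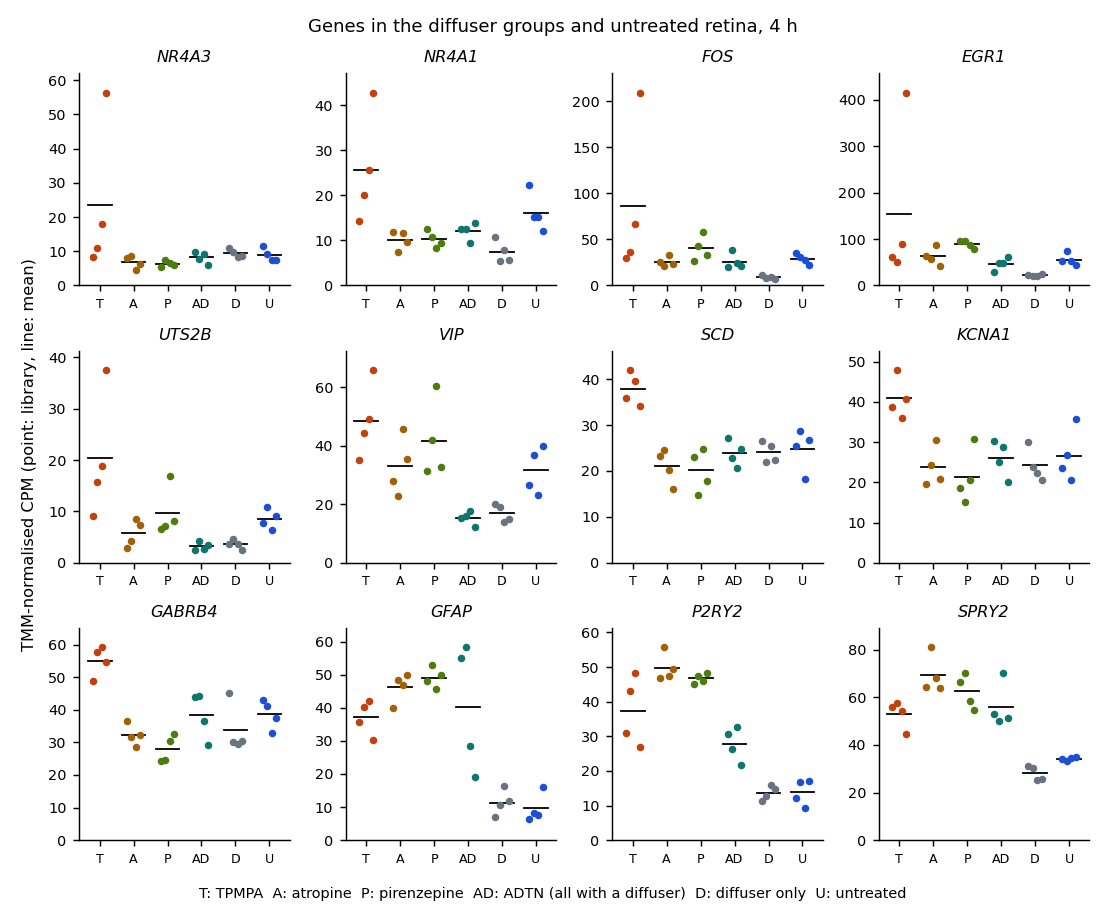
CPM by library at 4 h in TPMPA (T), atropine (A), pirenzepine (P) and ADTN (AD) retina, all with a diffuser, in diffuser-only (D) and in untreated (U) retina; points are libraries 1 to 4, lines are means, axes start at 0. NR4A3, NR4A1 and UTS2B have their highest mean with TPMPA, SCD, KCNA1 and GABRB4 are even and higher with TPMPA, and GFAP, P2RY2 and SPRY2 are high with all 4 drugs.

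Of 31 cholesterol and fatty acid synthesis genes 1, SCD, was called against the other injections, and the median change was 0.22. SCD, which desaturates fatty acids (ENSGALG00000005739, chromosome 6, 17493789 to 17509405), had 35.9, 42.02, 39.5 and 34.2 CPM with TPMPA, 23.2, 24.5, 20.3 and 16.1 CPM with atropine, 23.1, 14.8, 24.8 and 17.8 CPM with pirenzepine and 27.1, 22.9, 20.7 and 24.7 CPM with ADTN. Every TPMPA library lay above all 12 others, the change was 0.81 (adjusted p = 0.000488), and the call held without any one library of the contrast (adjusted p at most 0.0117). GM2A, an activator protein for ganglioside breakdown, averaged 29.4 CPM with TPMPA and 13.9, 13.9 and 21.7 CPM with atropine, pirenzepine and ADTN (change 0.86, adjusted p = 0.0101). KCNA1, a voltage-gated potassium channel (ENSGALG00000017280, chromosome 1, 73644812 to 73646287), averaged 40.9 CPM with TPMPA and 23.8, 21.3 and 26.01 CPM with those drugs (change 0.79, adjusted p = 0.00679). The KCNA1 call was lost without TPMPA library 2 (adjusted p up to 0.0667). GABRB4 (ENSGALG00000033183, chromosome 4, 10696144 to 10762914) had 48.7, 57.6, 59.2 and 54.6 CPM with TPMPA, 36.5, 31.6, 28.6 and 32.4 CPM with atropine, 24.3, 24.5, 30.4 and 32.6 CPM with pirenzepine and 43.9, 44.1, 36.6 and 29.3 CPM with ADTN. Each TPMPA library was above the other 12, and the change was 0.76 (adjusted p = 0.0101), lost without TPMPA libraries 2 or 3 (adjusted p up to 0.0568). RBFA, a factor of mitochondrial ribosome assembly, and SKIV2L2, a helicase of RNA decay, were lower, with changes of -0.42 and -0.18 (adjusted p = 0.0206 and 0.0331). RBFA was lost without TPMPA libraries 2, 3 or 4 (adjusted p up to 0.0908), and SKIV2L2 without TPMPA libraries 2, 3 or 4 or atropine library 3 or ADTN library 2 (adjusted p up to 0.193). NR4A1, SCD, GM2A, KCNA1, GABRB4, RBFA and SKIV2L2 were named in this contrast on condition of no overlap. Their separation is therefore no added support.

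Calls higher with TPMPA than after the other drugs were counted by list, beside 0.667% over all genes. They were 6 of 44 immediate early, 3 of 17 ERK feedback and 3 of 23 neuropeptide genes. A further 4 of 67 potassium channel and 1 of 30 GABA system genes were called higher. Medians were 0.12, 0.22, 0.07, 0.14 and 0.06, against 0.01 for all genes. The potassium channels were KCNA1, KCNJ2, KCNK9 and KCNMA1, the ERK feedback genes DUSP4, DUSP6 and ETV5, and the peptides VIP, PACAP and UTS2B. Each of these potassium channel calls, and that of GABRB4 in the GABA system list, was lost without TPMPA library 2. That library was high in small structural RNAs. KCNMA1 was at 211 to 275 CPM with TPMPA and 170.5 to 236.7 CPM after the other drugs. It was at 224.8 to 282.5 CPM in untreated retina and 229.7 to 251.8 CPM with the diffuser alone, which overlapped TPMPA. For KCNA1 every TPMPA library lay above the untreated range of 20.5 to 35.6 CPM. DUSP6 with ADTN, at 74.4 to 100.8 CPM, overlapped TPMPA. Without TPMPA library 4 the counts of immediate early, ERK feedback and neuropeptide genes were 2, 2 and 1. Müller glial (2 of 26), late activity (2 of 20), dopamine (1 of 11) and retinal neuron class genes (1 of 33) also held higher calls. In the pigment cell list 1 of 20 was lower, beside 0.197% over all genes. Interferon-stimulated genes had a negative change in 32 of 33 (median -0.68) and cytokine, STAT and NF-kB genes in 27 of 34 (median -0.16), and in both lists 0 passed by edgeR. The interferon list had 0 higher and 14 lower, and the cytokine list 2 higher and 7 lower, at an unadjusted p under 0.05. Over all genes 2457 of 15746 passed that p in this contrast in either direction. DESeq2 called 6 lower in the interferon list and 1 higher and 1 lower in the cytokine list, and limma voom 2 lower and 1 higher.

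GFAP averaged 37.1 ± 5.33 CPM with TPMPA, 46.3 ± 4.35 CPM with atropine, 49.1 ± 3.13 CPM with pirenzepine and 40.3 ± 19.4 CPM with ADTN (SD, n = 4 each). Its changes against the shared untreated libraries were 1.97, 2.29, 2.37 and 2.09 in that order, and the change of TPMPA from the other drugs was -0.28 (95% interval -0.93 to 0.37). For P2RY2 the changes were 1.43, 1.85, 1.75 and 1.01 against untreated, and for SPRY2 0.64, 1.02, 0.87 and 0.72. Their differences from the other drugs were -0.10 (-0.50 to 0.29) and -0.23 (-0.44 to -0.02). STAT3 averaged 335 CPM with TPMPA and 463, 524 and 356 CPM with atropine, pirenzepine and ADTN (difference -0.40, interval -0.70 to -0.10, adjusted p = 0.183).

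Whether the change against untreated retina differed between 24 h and 4 h was tested directly, and 0 genes passed by edgeR's quasi-likelihood test. At an unadjusted p under 0.05 there were 672, the smallest adjusted p was 0.814, and DESeq2 called 9 and limma voom 0. At 24 h itself 0 genes passed between TPMPA and untreated retina, with 576 at an unadjusted p under 0.05. GFAP at 24 h averaged 22.7 CPM with TPMPA (n = 4) and 17.5 CPM in untreated retina (n = 3). The 24 h change of GFAP was 0.37, and its difference from the 4 h change was -1.60 (95% interval -2.80 to -0.40, adjusted p = 1.00). CHAC1 at 24 h averaged 2.23 CPM with TPMPA and 1.49 CPM in untreated retina, and EGR1 62.3 and 47.5 CPM.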

How the data were processed

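Whole retina was sequenced in 54 libraries of 14 groups. Per the labels' protocols, Trizol extraction gave RNA of an integrity number above 7.0, and directional libraries were sequenced from both ends (75 cycles, NextSeq 500). Per the submitters' processing notes, Trimmomatic 0.36, HISAT2 2.1, HOMER, edgeR, limma and the build galGal5 were used, but which step each served, and the strand setting, is not stated there. The values the authors deposited are raw counts per Ensembl transcript entry (38118 entries, 24881 gene identifiers). Deposited transcript coordinates and lengths, in bases (another unit), were used only to place genes and pick short structural RNAs. No columns of other samples were used.

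From these, 1 entry per gene name, that with the largest summed count, was kept (24599). Entries of 1 transcript region under different names, such as the nestin entries, share reads and were tested separately. Then filterByExpr (minimum count 10, minimum total 15) left 15746 genes, 4460 of them without a symbol. After TMM scaling, a quasi-likelihood model (edgeR 4.0.16, robust, R 4.3.3) with a mean per group was fitted over all 54 libraries. P-values are two-sided and adjusted by Benjamini-Hochberg over all genes tested. Alternatives included DESeq2 1.42.0 and limma 3.58.1 (voom). In simulated counts for the TPMPA and untreated comparison (15591 genes), 91% of 100 genes changed by 1 on the log2 scale and 95% of 100 changed by 2 were recovered, with 9 false calls. The simulated libraries of a group shared the same mean share of each gene, so none stood apart as some real libraries did. The recovery in the real data can therefore be lower. Among the TPMPA and among the untreated libraries at 4 h, no pair agreed within sampling noise. A planned search of promoters for motifs was not run, since no sequences were used here.

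Named genes were the largest rises and falls (up to 15 each) that had a symbol, averaged 2 CPM or more and did not overlap, the genes lowered by the diffuser, examples of each list (some are not reported here), a set of followed genes, and the 5 largest rises and falls against the other injections. The rises and falls against the other injections met the same conditions of symbol, level and no overlap. Members and lists were chosen with earlier results of these data known.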

Additional observations from a re-analysis of the deposited data

Results flagged for a closer look

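In groups of 4 libraries, Dixon's test at 95% was applied to 45 named genes in the TPMPA and untreated groups (90 tests), where chance gives about 1 in 20. It marked 2 values. EGR1 was at 415 CPM in TPMPA library 4, against 49.7 to 89.5 CPM in the other TPMPA libraries. MTHFD2, a mitochondrial enzyme of folate metabolism, was at 31.9 CPM in TPMPA library 4, against 43.3 to 44.3 CPM in the others. FOS at 209.6, NR4A3 at 56.4 and UTS2B at 37.5 CPM were also highest in that library without meeting the test. Its total count of 12.4 M was the lowest of the 4.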

How the results depend on the processing

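The count of genes called between TPMPA and untreated (23) was 107 by DESeq2, 41 with a filter of 2 CPM, 11 with the 2 groups alone in the fit, 51 with the vessel score and 69 within the low small-RNA libraries. In that last run the calls of GFAP, NPY, PIK3R5, SPRY2, RGS4, RGL1, NXN and LGALSL were lost. Those of CHAC1, ASNS, VPS54, KCTD7 and SIAH1 were lost too, and those of P2RY2 and NR4A3 held. That run kept only TPMPA libraries 3 and 4, and library 4 was the one that carried NR4A3. The count ranged from 0 to 61 without single libraries and was 0 without untreated libraries 1 and 3, chosen after seeing the data. Against the other injections (136) it was 307 by DESeq2, 73 without a filter, 23 with those groups alone, 87 with the small-RNA score and 287 with the vessel score, and 27 to 297 without single libraries. For the difference between times (0) DESeq2 called 9, and the count stayed at 0 without each single library. Restored genes (9) numbered 16 by DESeq2, 1 by voom, 4 without a filter, 0 with 3 groups alone, 4 with total count as a term, 0 without untreated libraries 1 and 3, and 2 to 29 without single libraries. Genes also lower with TPMPA (4) numbered 15 by DESeq2, 0 by voom, 2 without a filter, 0 with 3 groups, 2 with the vessel score, 1 with total count, 2 with summed entries, 0 without untreated libraries 1 and 3, and 0 to 31 without single libraries. Overshoot (3) numbered 27 by DESeq2, 7 at 2 CPM, 11 with 3 groups, 9 with the vessel score, 0 without untreated libraries 1 and 3, and 0 to 8 without single libraries. New genes (19) numbered 90 by DESeq2, 34 at 2 CPM, 49 with the vessel score, 0 without untreated libraries 1 and 3, and 0 to 35 without single libraries. TPMPA and untreated deviations of libraries 1 to 4 with the same number correlated at 0.17, -0.03, -0.01 and 0.32. Libraries 1 and 4 correlated best with their own number and 2 and 3 did not, and the labels give the number no meaning, so it was not taken as a pairing. With the replicate block the counts were 43 called, 274 against the other injections, 2 also lower, 12 overshooting and 41 new. No named gene that was called between TPMPA and untreated changed sign under any alternative run, which is no added support for genes whose groups do not overlap. The cause of the differences between runs was not tested. A fit within the high small-RNA libraries was not run, as they hold 1 untreated sample. Depth limits genes of a few CPM such as PRLHR, where a library holds few counts.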
